A study of Mus musculus with 2 samples.

Results

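The 9 genes described here encode proteins that line wet epithelial surfaces. They are the secretoglobins Scgb1a1, Scgb3a1 and Scgb3a2, the BPI-fold proteins Bpifa1 and Bpifb1, the lectin Reg3g, the trefoil peptide Tff2, the iron-binding protein lactoferrin (Ltf) and Pigr, the receptor that carries polymeric immunoglobulin across epithelium. They were taken by symbol from the 27998 genes of the count tables, and all 9 were found. The genes had been picked because their levels differed between control and IL-1β organoids in these same libraries, so that difference is given as a description with no test.

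The organoids were derived from AT2 cells, the alveolar cells that make surfactant, of C57BL/6 mice of the genotype SPCCreERT2;R26RtdTomato. In these mice tamoxifen activates a Cre driven by the surfactant protein C (Sftpc) promoter, which turns on Tomato, so any cell with an active Sftpc promoter at that time can be labelled. Sorted labelled cells were co-cultured with lung stromal cells, for 2 weeks by the labels but longer by a legend of the study, and received PBS (control) or the inflammatory cytokine IL-1β, and each condition gave 1 library of single cells in droplets. Both conditions carried the transgenes and had stromal cells in the culture, no age of the mice is given in the labels, and neither Tomato nor Cre is among the genes of the files, so the lineage label of a cell could not be read.

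The control library held 2101 cell barcodes and the IL-1β library 3066, of which 11 barcodes occurred in both. After cutoffs and removal of stromal clusters, the epithelium came to 1284 control and 2583 IL-1β cells, with 19127651 and 31115355 unique molecular identifiers (UMIs) in all. Levels are UMIs per 1000000 UMIs of the cells summed (CPM). The 797 control and 475 IL-1β stromal cells, in which the 9 genes were assumed to be inactive, served to measure free RNA. All 10 AT2 markers, Sftpc among them, were found in the epithelial cells of both libraries. Epithelial cells were clustered with the 9 genes and related genes held out, which gave clusters 0 to 11. Clusters 0 and 8 (mostly control) and 1, 2, 3 and 7 (mostly IL-1β) form the group called Sftpc-high clusters, because no AT1, DATP or airway list had a mean log2 fold 1 or more above that of the AT2 list in them. In cluster 2 the DATP list (0.27) was nonetheless above the AT2 list (-0.43), and Sftpc was at 52785 CPM in IL-1β cells of cluster 2. This was below the 78214 CPM of cluster 1 and the 58206 CPM of all IL-1β epithelial cells, so the group's name is loose for cluster 2. The clusters are compared by number, since cell cycle genes led cluster 8 and Cd177 and Pon1, markers of other cell types, were among the leading genes of clusters 1, 3 and 7. Clusters 4 and 6 were AT1-like (AT1 cells are the thin gas exchange cells), and clusters 5 and 9 were DATP-like, after the damage-associated transient progenitors that express Krt8 and Cldn4. Cluster 4 was mixed, with the DATP list (1.29) not far below the AT1 list (1.60). The DATP markers AW112010 and Cldn4 were among its leading genes. With 1 library per condition there is no replicate check, and an effect of IL-1β and a difference between 2 cultures cannot be told apart.

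In the lung, secretoglobins and BPI-fold proteins are products of club and goblet cells of the conducting airway, released into the fluid over the epithelium, whereas alveoli contain few such cells. Scgb1a1 (club cell secretory protein) is the classical club cell product and is also transcribed in rare cells at the junction of airway and alveolus. Reg3g and Ltf act against bacteria, Tff2 stabilises mucus and aids repair, and Pigr takes up dimeric IgA at the basal side of epithelial cells and releases it at the apical side.

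Gene positions are those of GENCODE on GRCm38. The secretoglobin genes Scgb1a1 (ENSMUSG00000024653) and Scgb3a1 (ENSMUSG00000064057) lie at chr19:9083636-9087958 (- strand) and chr11:49663610-49665118 (+ strand), and Scgb3a2 has the identifier ENSMUSG00000038791. Bpifa1 (ENSMUSG00000027483) and Bpifb1 (ENSMUSG00000027485) lie near each other at chr2:154142880-154149219 and chr2:154190818-154220369 (+ strand). Reg3g (ENSMUSG00000030017) lies at chr6:78466269-78468872 (- strand), Tff2 (ENSMUSG00000024028) at chr17:31141049-31144282 (- strand), Ltf (ENSMUSG00000032496) at chr9:111019271-111042767 (+ strand) and Pigr (ENSMUSG00000026417) at chr1:130826684-130852249 (+ strand).

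Promoter sequence is shown for 3 genes that represent the patterns described below: Pigr, found in many IL-1β epithelial cells, and Scgb3a1 and Reg3g, held by a few. Each stretch is the 250 bases before the gene's start in RefSeq on GRCm38.p6, at chr1:130826434-130826683 (+ strand) for Pigr, chr11:49663345-49663594 (+ strand) for Scgb3a1 and chr6:78468875-78469124 (- strand) for Reg3g. Capitals mark matches to the motifs searched.
Pigr: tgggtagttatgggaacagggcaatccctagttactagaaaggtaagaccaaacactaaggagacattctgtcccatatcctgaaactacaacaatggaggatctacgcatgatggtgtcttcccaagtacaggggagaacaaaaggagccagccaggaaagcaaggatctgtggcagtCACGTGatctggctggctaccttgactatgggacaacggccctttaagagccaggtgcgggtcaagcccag
Scgb3a1: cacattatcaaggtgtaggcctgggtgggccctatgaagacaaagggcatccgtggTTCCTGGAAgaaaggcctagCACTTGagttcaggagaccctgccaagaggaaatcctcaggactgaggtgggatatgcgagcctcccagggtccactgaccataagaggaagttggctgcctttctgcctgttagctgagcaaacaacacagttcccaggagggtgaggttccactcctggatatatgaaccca
Reg3g: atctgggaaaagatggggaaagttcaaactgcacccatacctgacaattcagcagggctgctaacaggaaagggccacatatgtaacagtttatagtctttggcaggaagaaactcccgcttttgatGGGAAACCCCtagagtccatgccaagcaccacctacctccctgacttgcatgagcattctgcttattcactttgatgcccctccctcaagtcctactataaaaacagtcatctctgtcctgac
On both strands, 6 motifs were searched in 32851 such promoters. The capitals in Pigr are an E-box (CACGTG) at -71, which 6.02% of all promoters held. Those in Scgb3a1 are a STAT match (TTCNNNGAA) at -194, held by 7.02%, and an NKX2-1 match (CAAGTG, here on the other strand) at -174, held by 11.6%. Those in Reg3g are an NF-kB match at -123, held by 3.90%. The 6 of the 9 genes in the RefSeq table also included Bpifa1 and Ltf, with no match to any of the 6 motifs, and Bpifb1, with a STAT match at -146 in 1 of its 2 promoters. The other motifs, FOX (TGTTTAC) and IRF (TTTCNNTTT), were held by 3.17% and 9.37% of promoters and by none of these. Promoters of Scgb1a1, Scgb3a2 and Tff2 are not shown. A match is a description of the letters only.

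In summed epithelial cells, 8 of the 9 genes were past 2-fold higher in IL-1β organoids and 1, Scgb1a1, was past 2-fold lower. Past 2-fold means here that the nearer limit of the exact 95% interval of the ratio lay beyond 2 or under 0.5, among genes with at least 100 UMIs over both libraries. Of all 11052 genes tested, 4.14% were past 2-fold higher and 2.43% past 2-fold lower, and since the genes were chosen on this contrast nothing is read from the difference. Levels in CPM carry exact Poisson intervals. All intervals cover counting error only.

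Among the secretoglobins, Scgb1a1 was at 254 CPM (4867 UMIs, 247 to 262) in control and 23.6 CPM (733 UMIs, 21.9 to 25.3) in IL-1β epithelial cells, a ratio of 0.0926 (interval 0.0855 to 0.1001). Scgb3a1, an airway secretoglobin of mucous cells, had 0 UMIs in control and 8456 in IL-1β epithelial cells (272 CPM). The ratio was 1733 when 3 UMIs are allowed for the control sum, and the lower limit of its exact interval was 1409. Scgb3a2, a secretoglobin of small airways, had 6 UMIs (0.314 CPM) and 2643 UMIs (84.9 CPM), a ratio of 271 (124 to 739). The related Scgb1a1 and the Scgb3 genes thus lay in opposite directions between the libraries.

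Of the BPI-fold proteins, Bpifa1 went from 4 UMIs (0.209 CPM) in control to 2257 UMIs (72.5 CPM), a ratio of 347 (135 to 1274). Bpifb1 was much less abundant in the library, with 6 UMIs (0.314 CPM) and 172 UMIs (5.53 CPM), a ratio of 17.6 (7.93 to 48.7). Both genes code for bacteria-binding proteins of airway fluid.

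Reg3g, Tff2 and Ltf had no UMI in the 1284 control epithelial cells. With 3 UMIs allowed this is 0.157 CPM, or 0.234% of cells with a UMI. The exact upper limits were 0.193 CPM and 0.287% of cells. In IL-1β epithelial cells Reg3g had 2415 UMIs (77.6 CPM), Tff2 939 UMIs (30.2 CPM) and Ltf 424 UMIs (13.6 CPM). With 3 UMIs allowed for control their ratios were 495, 192 and 86.9, and the exact lower limits were 402, 156 and 70.4. Pigr had 73 UMIs (3.82 CPM) in control and 5812 UMIs (187 CPM) in IL-1β epithelial cells, a ratio of 48.9 (38.9 to 62.5).

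**Figure D1:**
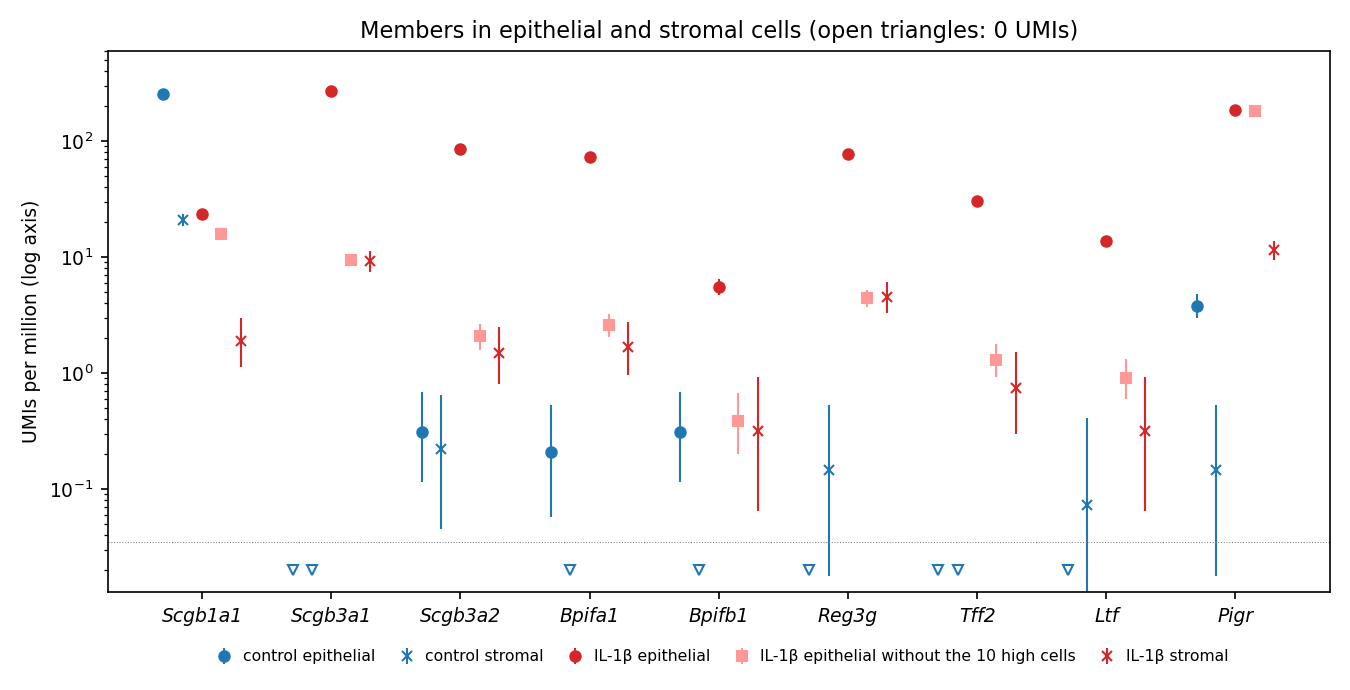
Level in CPM (log axis) of the 9 genes in epithelial and stromal cells of the control (blue) and IL-1β (red) libraries, with exact Poisson 95% intervals as bars (hidden where smaller than the point) and open triangles for 0 UMIs. Squares leave out 10 IL-1β cells described in the text: 7 genes then lie near their stromal level, while Pigr stays at 180 CPM against 11.4 CPM in stromal cells.

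These sums hide how the UMIs were spread over cells. The 1% of IL-1β epithelial cells with the most of a gene (26 cells) held 96.8% of Scgb3a1, 98.5% of Scgb3a2, 97.3% of Bpifa1 and 100% of Bpifb1 UMIs. The same share was 95.2% for Reg3g, 98.7% for Tff2 and 99.3% for Ltf. It was 8.71% for Pigr, against 2.95% for the AT2 gene Sftpc. So 7 genes were held by a few cells and Pigr was spread over many. With cells ranked by UMIs instead, it took 3 cells to reach 50% of the Scgb3a1 UMIs. It took 2 cells for Scgb3a2, Bpifa1, Reg3g, Tff2 and Ltf, and 1 for Bpifb1, but 249 cells for Pigr and 597 for Sftpc. Scgb1a1 lay between, with 64.0% of its IL-1β UMIs in 26 cells and 74.5% of its control UMIs in the top 13 of 1284 cells.

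**Figure D2:**
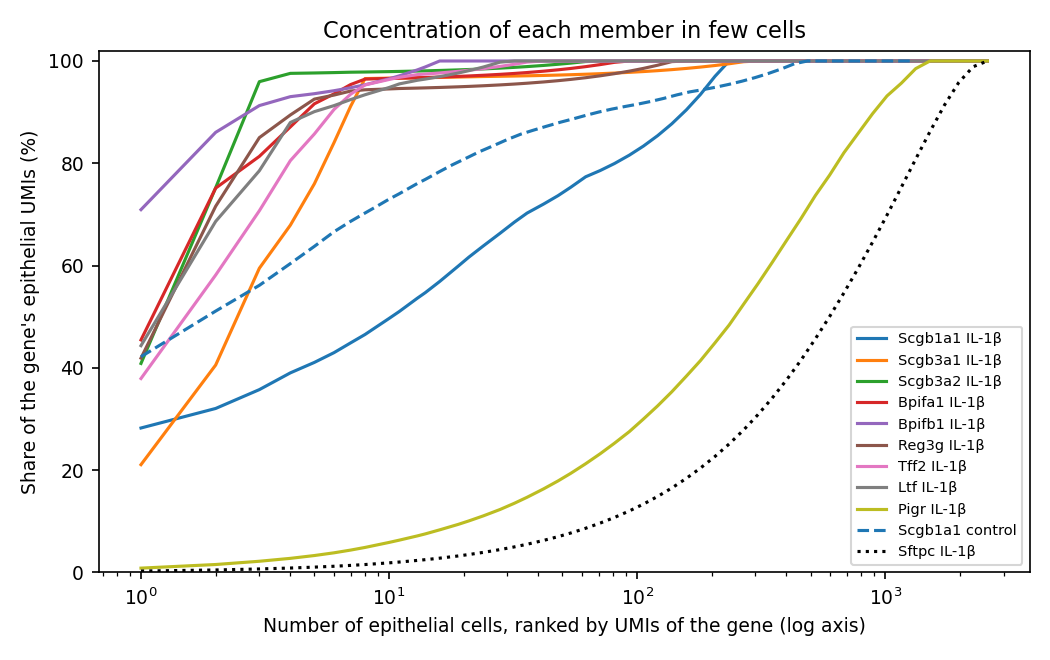
Share of each gene's epithelial UMIs (vertical axis, %) held by the given number of cells with the most UMIs (log axis), for IL-1β epithelial cells and, dashed, Scgb1a1 in control cells; Sftpc is dotted. Curves of 7 genes reach over 90% within 24 cells, whereas Pigr reaches 11.1% and Sftpc 3.92% there.

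A cell was called member-high when any of the 7 genes other than Scgb1a1 and Pigr reached 10 UMIs per 10000. This cut was set after the data were seen. There were 10 such cells among 2583 IL-1β epithelial cells (0.387%, exact interval 0.186% to 0.711%), 0 among 1284 control epithelial cells (exact upper limit 0.287%) and 0 among stromal cells. The cut fell in a wide gap, since the lowest of the 10 cells had 18.7 UMIs per 10000 of its top gene and the highest of the other cells 3.96. The 10 cells held 96.6% of the Scgb3a1, 97.6% of the Scgb3a2, 96.5% of the Bpifa1 and 93.0% of the Bpifb1 UMIs of IL-1β epithelium. They held 94.4% of Reg3g, 95.7% of Tff2 and 93.4% of Ltf, but 34.0% of Scgb1a1 and 4.198% of Pigr.

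The 10 cells differed among themselves in which genes they held. Scgb3a1 was present in 8, at 1782, 1647, 1600, 712, 680, 685, 458 and 601 UMIs in cells 1 to 8, and at 0 in cells 9 and 10. Scgb3a2 was in 4 of these, with 908, 1080, 548 and 43 UMIs in cells 1 to 4, and Bpifb1 was in the same 4 cells, with 122, 9, 26 and 3 UMIs. Both were at 0 in all others, so a pair of secretoglobins and a BPI-fold gene marked 4 of the 8 Scgb3a1 cells.

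Bpifa1 was in 8 cells, and its highest value was in cell 8 (1026 UMIs), which had no Scgb3a2, Bpifb1 or Reg3g. The next highest, 670 UMIs, was in cell 2, and the other 6 had 24 to 140. Cell 8 was the deepest of the 10, at 42762 UMIs, and per 10000 UMIs cell 2 was higher in Bpifa1 (325 against 240). Reg3g was highest in cells 2 (1012 UMIs) and 1 (717), then 324 in cell 3 and 107 in cell 4, and 6 to 75 in 4 more. Its high values thus lay in the same cells as Scgb3a2. Ltf had another order, at 188 UMIs in cell 8, 103 in cell 2, 42 in cell 7 and 40 in cell 9, and 0 to 9 elsewhere. Tff2 was found in 9 cells, at 356 UMIs in cell 3, 190 in cell 1 and 118 in cell 2, and it was the one gene of the 7 in cell 10, at 92 UMIs. Pigr was found in all 10, at 4 to 49 UMIs. Scgb1a1, the club cell product, was at 207 UMIs in cell 1, 27 in cell 8 and 0 to 8 in the other 8.

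**Figure D3:**
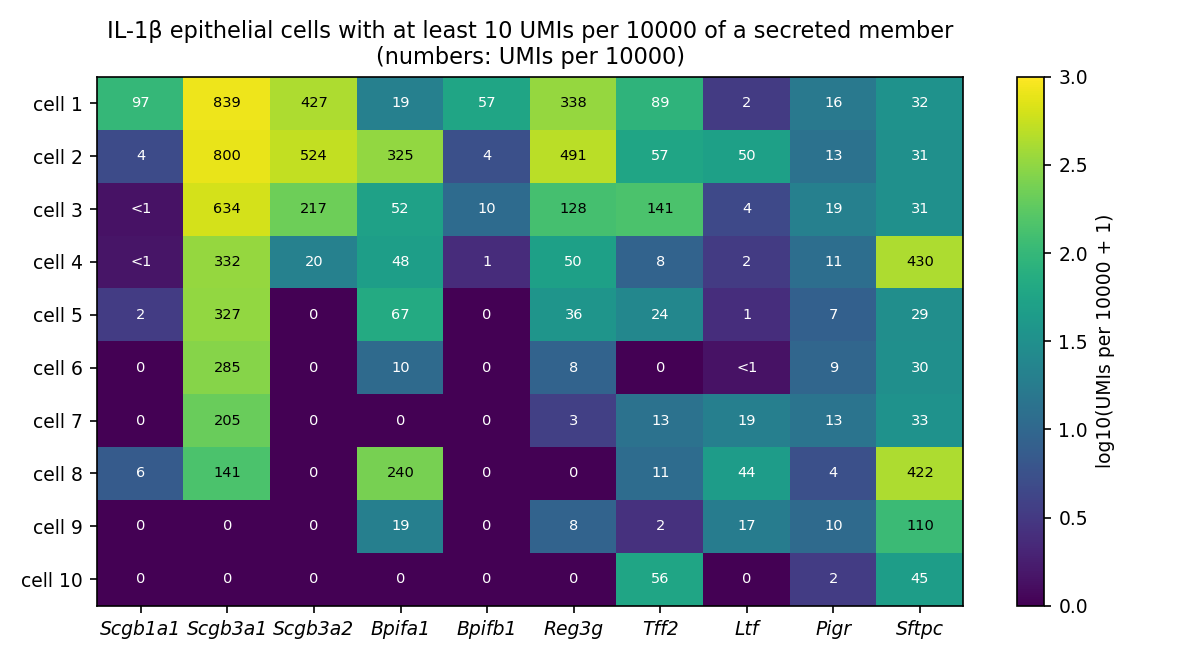
UMIs per 10000 of the 9 genes and Sftpc (columns) in the 10 member-high IL-1β cells (rows), coloured by log10(value + 1). Cells 1 to 4 hold Scgb3a2 and Bpifb1 with Scgb3a1, Ltf is highest in cells 2 and 8 and cell 10 has Tff2 alone of the 7 genes.

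Markers of airway secretory cells that were not among the 9 genes were also high in these cells. Of 14 such markers, 10 were found, summing to 8022 CPM. The sum was 292 CPM in the other IL-1β epithelial cells, 192 CPM in IL-1β stromal cells and 881 CPM in control epithelial cells. Cyp2f2, a cytochrome P450 of club cells, was at 776 CPM (668 to 896) in the 10 cells and 122 CPM (118 to 126) in the others, and Cbr2, a club cell carbonyl reductase, at 5408 CPM (5117 to 5711) and 114 CPM (111 to 118). Cbr2 made up most of the sum in the 10 cells. It was not limited to airway-like cells, since control epithelial cells had it at 744 CPM, in 1139 of 1284 cells. Muc5b, a gel-forming mucin, was at 201 CPM (148 to 267) in 8 of 10 cells and at 0.453 CPM (0.248 to 0.761) elsewhere. The airway transcription factor Sox2 was at 117 CPM (78.1 to 170) in 8 cells, and the secretory genes Gabrp and Agr2 at 315 CPM in 8 cells and 75.5 CPM in 5. Krt4, Upk3a, Lypd2 and Gp2 were at 0. Cell 10 stood apart, with 1 UMI of Cyp2f2, no Cbr2, Sox2 or Muc5b and 3 UMIs of Spib, a transcription factor of M cells.

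Markers of other cell types were partly found in the 10 cells. Of 7 ciliated cell markers 2 (Ccdc153 and Sec14l3) were at 0 and the list summed to 151 CPM against 122 CPM in the other IL-1β epithelial cells, but the ciliated cell regulator Foxj1 was at 105 CPM (67.9 to 155, 25 UMIs in 6 cells) against 1.26 CPM. Of 5 basal cell markers 4 were at 0 (Krt5, Krt14, Krt15 and Ngfr), while Trp63 was at 25.2 CPM (9.24 to 54.8, 6 UMIs in 3 cells) against 0 UMIs. The 9 neutrophil markers summed to 122 CPM against 56.0 CPM, with 6 at 0 (Mpo, Elane, Camp and Ngp among them), Cd177 at 92.3 CPM (57.8 to 140, in 2 cells) against 50.4 CPM, and Retnlg at 25.2 CPM (6 UMIs in 2 cells) against 0.0648 CPM. Ltf is also a granule protein of neutrophils, and the part of these cell types in the 10 profiles was not tested. All 5 endothelial and 6 of 7 immune markers were at 0. A count of 0 in the 10 cells has an exact upper limit of 15.5 CPM. The 6 cell cycle markers were all found, summing to 197 CPM against 14.2 CPM in the other IL-1β epithelial cells. This sum does not show that the 10 cells cycled as a group. The cell cycle gene Mki67 was found in cells 3 and 4 alone, and cell 3 lay in cluster 8, which cell cycle genes led. How the sum was spread over the 10 cells was not tested.

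As a sum, AT2 markers were lower in the 10 cells. It was 27903 CPM, against 85769 CPM in other IL-1β epithelial cells and 6107 CPM in stromal cells. Cells 4 and 8 held 922 and 1804 of the 3479 Sftpc UMIs in it. Not all markers were clearly lower, since Etv5 was at 50.3 CPM (26.0 to 87.9) against 78.2 CPM. Sftpa1 was at 5706 against 10228 CPM (731 CPM in stromal cells). Cxcl15 was at 3402 against 5026 CPM (328 CPM in stromal cells). The median of Sftpc was 32.6 UMIs per 10000 in the 10 cells, 571 in the other IL-1β epithelial cells and 35.6 in stromal cells, where the 5% to 95% range was 21.1 to 109. In 7 of the 10 cells Sftpc was at 29.4 to 45.3, within the stromal range, while cells 4 and 8 had 430 and 422 and cell 9 had 110. Whether these cells had carried the Sftpc-driven label could not be read. Slc34a2, a phosphate transporter of AT2 cells, was at 785 CPM against 2311 CPM in the other IL-1β epithelial cells. Lamp3, a lysosomal protein of AT2 cells, was at 327 CPM against 753 CPM. Both were found in all 10 cells, but also in 387 (Slc34a2) and 251 (Lamp3) of 475 IL-1β stromal cells.

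The 10 cells had a median of 21893 UMIs (16341 to 42762) against 11273 in the others, and 4.57% of IL-1β epithelial cells were deeper than that median. Their doublet scores (scrublet) were 0.0646 to 0.113, with a median of 0.0885 against 0.124 in the others. None had a barcode found in both libraries. The part of doublets in these profiles was not tested. With the 9 genes held out, 8 of the 10 cells fell together in cluster 11, which held no other cell, cell 3 fell in cycling cluster 8 with Mki67 at 1.19 UMIs per 10000, and cell 10 in cluster 10.

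**Figure D4:**
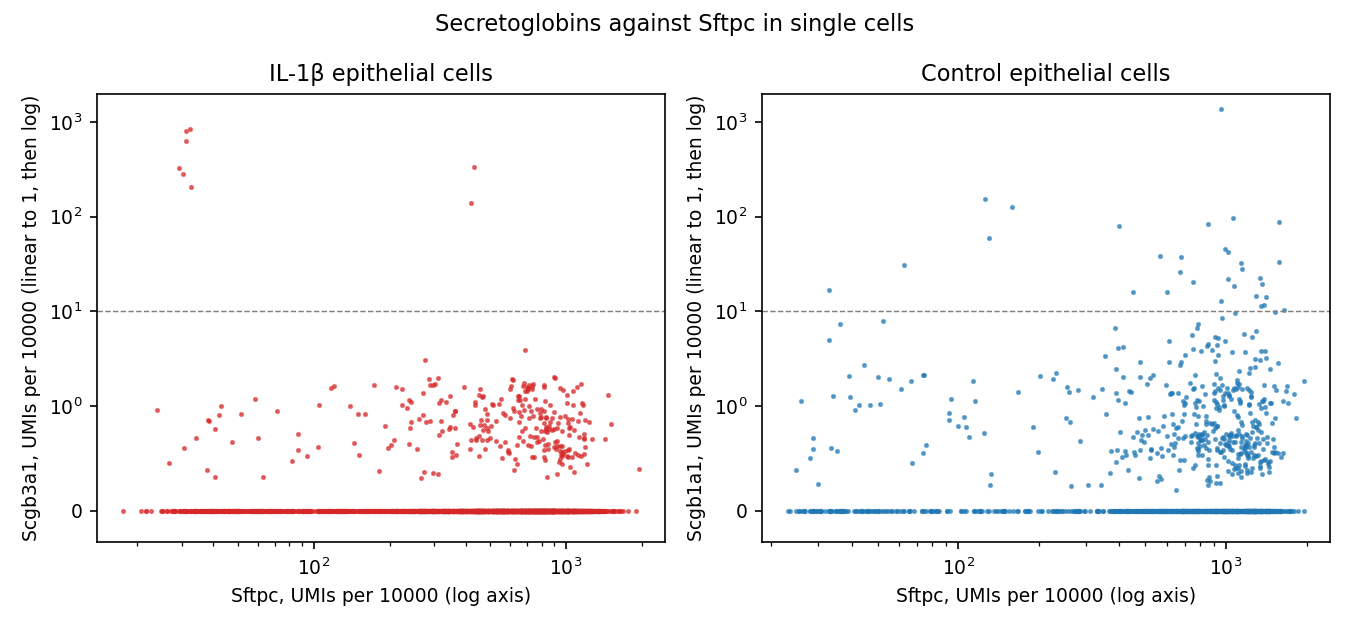
Scgb3a1 against Sftpc in IL-1β epithelial cells (left) and Scgb1a1 against Sftpc in control epithelial cells (right), each point 1 cell, in UMIs per 10000 (horizontal log axis; vertical axis linear to 1, then log; dashed line at 10). The 8 Scgb3a1 cells lie at 141 or more, apart from all others at up to 3.85 and mostly at low Sftpc. Scgb1a1 has no gap at the line at 10, and most cells above that line are of high Sftpc. Its top cell lies far above the next, at 1364 against 153.

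Outside the 10 cells the 7 genes were at or near the level of stromal cells, which is read as background. Scgb3a1 was at 9.42 CPM in the other IL-1β epithelial cells and 9.20 CPM in stromal cells, and Reg3g at 4.405 and 4.547 CPM. Stromal cells thus had 97.6% (75.9% to 124%) and 103% (71.5% to 146%) of the epithelial level. Of the 43 stromal Reg3g UMIs, 8 were in a single cell. For Scgb3a2 the share was 71.4% (37.0% to 129%), for Bpifa1 65.3% (35.6% to 113%), for Bpifb1 81.6% (14.8% to 302%), for Tff2 57.1% (21.6% to 129%) and for Ltf 35.0% (6.81% to 113%). All 7 intervals held 100%. Those of Bpifb1, Tff2 and Ltf rested on 3, 7 and 3 stromal UMIs, and those of Scgb3a2 and Bpifa1 on 14 and 16. These intervals are too wide to tell a higher epithelial level from the stromal one. In the Sftpc-high clusters without the member-high cells, the share for Bpifa1 was 56.6% (30.7% to 98.7%), just under 100%. The intervals of the other genes of the 7 held 100% there. The surfactant gene Sftpc, made by most epithelial cells, had 7.07% of its epithelial level in stromal cells, and Pigr had 6.33% (5.19% to 7.66%). Against all IL-1β epithelial cells, the 10 included, the stromal level was 1.74% to 5.86% for the 7 genes and 7.11% for Sftpc.

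Shares of cells with a UMI gave the same picture. A Scgb3a1 UMI was in 10.9% of IL-1β epithelial cells (median 11293 UMIs) and in 16.6% of stromal cells (median 14849 UMIs), and in 4.52% and 3.96% when every cell was thinned to 4500 UMIs. For Reg3g the shares were 5.46% and 6.11%, or 2.35% and 2.01% thinned. Across IL-1β clusters 1, 2, 3, 4, 5 and 7 Scgb3a1 lay between 7.74 CPM (4.96 to 11.5) and 10.4 CPM (7.86 to 13.4), and the intervals of these clusters overlapped. In the control library Scgb3a1 had 0 UMIs in epithelial and stromal cells, while Reg3g had 0 in epithelial and 2 in stromal cells and Ltf 0 and 1. Without the 10 cells, the counts past 2-fold fell to 3 higher (Scgb3a1, Reg3g and Pigr) and 1 lower of 4 genes tested, since Scgb3a2, Bpifa1, Bpifb1, Tff2 and Ltf dropped under 100 UMIs. The ratios of Scgb3a1 and Reg3g then rested on 291 and 136 UMIs at the stromal level, while Pigr kept a ratio of 47.3 (37.5 to 60.4).

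Low counts above background remained in single clusters. Ltf had 17 UMIs in 10 cells of DATP-like cluster 5 (5.48 CPM, and 4.21 CPM without its highest cell) against 3 UMIs (0.317 CPM) in stromal cells. Tff2 had 112 UMIs in 10 cells of cluster 10, 92 of them in member-high cell 10, and 38.3 CPM without it against 0.740 CPM in stromal cells. Cluster 10 was led by the chemokine gene Ccl20 and Spib, and Scgb3a1 in it was at 22.3 CPM from 12 UMIs (11.5 to 38.9). These are clusters of 297 and 34 IL-1β cells, so the values rest on few UMIs.

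When the 9 genes were kept in the clustering, a cluster led by Scgb3a1, Ccl20, Scgb3a2, Bpifa1 and Reg3g held 50 IL-1β cells (1.94%, 1.44% to 2.54%) and 1 control cell (0.0779%). It joined the 10 member-high cells with 40 cells of another kind, in which Bpifa1 and Bpifb1 had 0 UMIs, Scgb3a2 and Reg3g 1 each and Scgb3a1 14 (22.2 CPM). These 40 cells had Tff2 at 31.7 CPM (19.3 to 48.9, 20 UMIs) and Pigr at 389 CPM (342 to 441). Of the whole cluster, 35 cells came from cluster 10. The size of this secretory-like cluster was therefore set by how the cells were clustered, at 9 to 55 IL-1β cells over the other clusterings that kept the genes, each with 9 of the member-high cells.

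Scgb1a1 had a different pattern. At or above 10 UMIs per 10000 it was found in 31 control cells, which held 84.6% of its UMIs, and none of the 31 had a UMI of any of the other 8 genes. Little is read from this, since all control epithelial cells had 73 UMIs of Pigr and 0 to 6 of each of the others. The top cell alone held 2053 Scgb1a1 UMIs (42.2%), the next 434 and 245, and without the top cell the control level was 147 CPM. There was no gap at the cut, with 10.3 just above and 9.69 just below. Of the 31 cells, 22 were in cluster 0, 7 in AT1-like cluster 6, and 1 each in clusters 8 and 9, and 25 had Sftpc at or above 400 UMIs per 10000. Cells of cluster 0 held 2899 of the UMIs, 2053 of them in the top cell, and the 7 cells of cluster 6 held 1168. Of those 7 cells 5 had low Sftpc, at 32.8 to 158 UMIs per 10000. The 4 of the 7 with the most Scgb1a1 had 13062 to 34495 UMIs and doublet scores of 0.222 to 0.339, and the part of doublets was not tested.

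Within cluster 0, the 22 Scgb1a1-high cells had Sftpc at 113089 CPM against 101657 CPM in the other 862 cells, and the AT2 lipid transporter Abca3 at 615 CPM (528 to 711) against 532 CPM (519 to 545). Sftpc and Abca3 were thus not lower in them than in the other cells of cluster 0. Cluster 0 was itself taken as AT2 lineage from AT2 markers, so the comparison cannot tell whether Scgb1a1-high cells in general kept AT2 genes. The Scgb1a1-high cells of other clusters, some with low Sftpc, are not part of it. Cyp2f2 was at 469 CPM (394 to 554) against 75.5 CPM (70.8 to 80.4), and was in 100% against 48.8% of cells. Sox2 was at 34.0 CPM (16.3 to 62.5, 10 UMIs) against 3.11 CPM (2.21 to 4.25), and the surface glycoprotein Cd24a at 228 CPM (176 to 289) against 22.6 CPM (20.1 to 25.4). Cbr2, which was high in the member-high IL-1β cells, was close in both groups, at 975 CPM (865 to 1094) and 874 CPM (857 to 890). Median depth was 15100 and 13964.5 UMIs. Some of these cells had airway genes beside AT2 genes, and the part of doublets and of free RNA in this was not tested.

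Below the cut, Scgb1a1 in control cells was closer to background. Without the 31 cells it was at 40.1 CPM (37.3 to 43.1), with a UMI in 34.0% of cells, against 21.0 CPM (18.7 to 23.6) and 28.6% in control stromal cells. Thinned to 4500 UMIs, all control epithelial cells had a UMI in 16.6% and stromal cells in 9.70%. Control stromal cells had 8.27% (7.32% to 9.32%) of the epithelial Scgb1a1 level, against 4.46% for Sftpc and 4.37% for Sftpb. By cluster, control cells of clusters 0, 6, 9 and 8 had 269, 347, 118 and 35.3 CPM, and the 7 cells held 1168 of the 1273 UMIs of cluster 6. In cluster 9, with 41 control cells, 1 cell alone held 39 UMIs.

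In IL-1β epithelium, 7 cells reached 10 UMIs per 10000 of Scgb1a1, 1 of them member-high cell 1, and the other 6 had none of the 7 genes. Of these 6, 3 were in DATP-like cluster 5, 2 in cluster 7 and 1 in cluster 3. Cluster 5 was highest of the larger clusters at 55.5 CPM (47.5 to 64.4), from 172 UMIs in 48 cells, and at 47.9 CPM without its highest cell. Cluster 7 had 32.8 CPM (22.7 CPM without its highest cell), cluster 3 had 14.6, cluster 1 had 8.19, cluster 4 had 6.40 and cluster 2 had 5.64 CPM, against 1.90 CPM in stromal cells. Clusters 5 and 7 did not overlap in their intervals, while those of clusters 1, 2 and 4 did. In the Sftpc-high clusters Scgb1a1 went from 238 CPM in control to 12.4 CPM in IL-1β, a ratio of 0.0521 (0.0460 to 0.0589). Of the 3529 control UMIs in this sum, 2053 were in 1 cell of cluster 0. The ratio thus depends in large part on that cell, which its interval does not cover. In these clusters 7 of the 9 genes had 100 UMIs, with 6 past 2-fold higher and 1 lower, where 4.32% and 2.15% of all 10428 genes tested were. The IL-1β sums of 5 of those 6 genes were mostly 1 cell, member-high cell 3. Without it Scgb3a1 went from 79.7 to 9.49 CPM, Scgb3a2 from 26.4 to 2.33, Tff2 from 16.2 to 0.615, Reg3g from 18.6 to 4.35 and Bpifa1 from 8.69 to 2.99. Then 2 genes, Scgb3a1 and Pigr, were still past 2-fold higher. Scgb3a2, Tff2, Reg3g and Bpifa1 were no longer tested, as they fell under 100 UMIs, Reg3g with 99 against 0 in control.

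Of the 8 genes higher in IL-1β organoids, Pigr was the one spread over many epithelial cells, in Sftpc-high, DATP-like and AT1-like clusters. A UMI was in 54.7% (52.8% to 56.7%) of IL-1β epithelial cells, in 12.8% of IL-1β stromal cells and in 3.82% of control epithelial cells. Thinned to 4500 UMIs these were 38.1%, 4.92% and 1.54%. At least 1 UMI per 10000 was found in 1114 IL-1β cells and at least 10 in 90. In the Sftpc-high clusters Pigr was at 4.79 CPM (71 UMIs) in control and 215 CPM (4896 UMIs) in IL-1β, a ratio of 44.8 (35.5 to 57.5).

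Across IL-1β clusters Pigr was higher in the Sftpc-high clusters than in AT1-like cluster 4. It was at 323 CPM (302 to 345) in cluster 7, 253 CPM in cluster 3, 203 CPM in cluster 1, 125 CPM in cluster 2 and 111 CPM (99.5 to 123) in DATP-like cluster 5. Cluster 4 had the lowest level of the IL-1β clusters with at least 8 cells, 46.2 CPM (40.0 to 53.0), still above the 11.4 CPM (9.37 to 13.8) of stromal cells. Clusters 2 and 5 overlapped in their intervals, and so did clusters 7 and 10 (332 CPM, 285 to 385). The 8 cells of cluster 11 were highest at 971 CPM (838 to 1118), so Pigr was also high in the member-high cells.

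Control cells of clusters 0, 6, 8 and 9 had little Pigr. It was at 3.04 CPM in cluster 0, 3.53 CPM in cluster 8, 0.545 CPM in AT1-like cluster 6 and 0 UMIs in cluster 9, with 0.147 CPM in stromal cells. A group of 21 control cells lay in clusters of mostly IL-1β cells, and they held 26 of the 73 control UMIs, at 69.5 CPM (45.4 to 101.8) in 11 of 21 cells. The other 1263 control cells had 2.51 CPM (1.84 to 3.33) in 38 cells. None of the 21 had a barcode found in both libraries, and their origin was not tested.

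**Figure D5:**
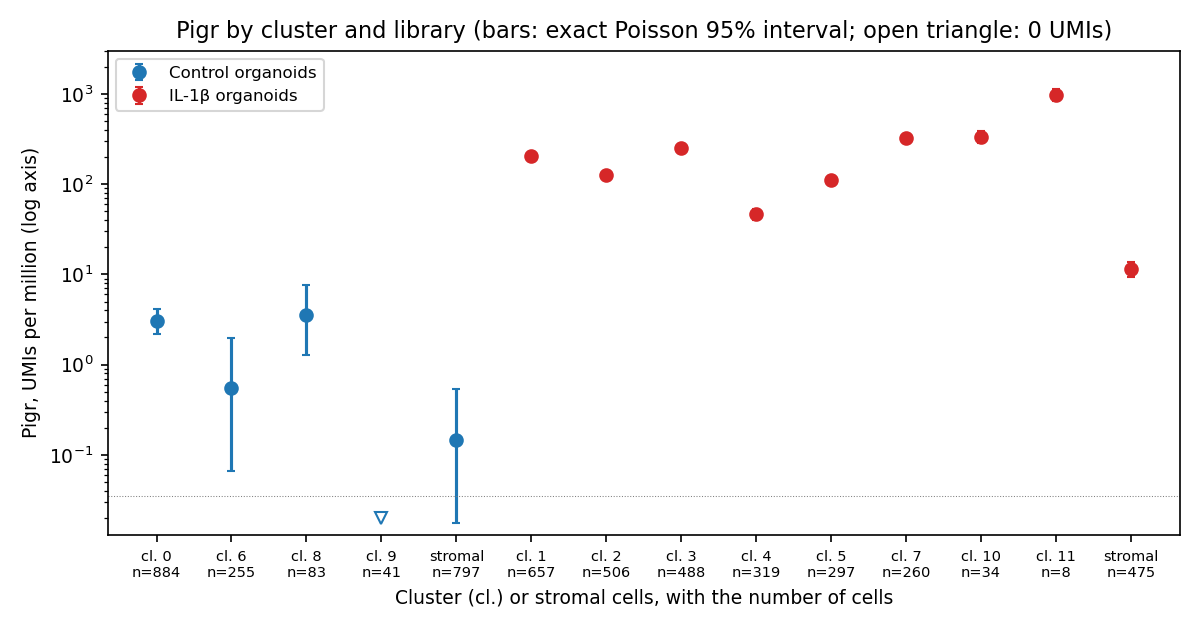
Pigr in CPM (log axis) in each cluster with at least 8 cells of a library and in stromal cells, with exact Poisson 95% intervals and an open triangle for 0 UMIs. IL-1β clusters lie between 46.2 and 971 CPM, above the IL-1β stromal cells at 11.4 CPM and above all control clusters, at up to 3.53 CPM.

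The genes most like each member across cells were found by Pearson correlation of log values over the epithelial cells of a library, given as a description, since all points share a library and its free RNA. In 1284 control cells Scgb1a1 was most like Cyp2f2 (r = 0.412), Cd24a (0.331) and the glucose transporter Slc2a3 (0.302). In 2583 IL-1β cells the 7 genes were most like each other: Scgb3a2 with Bpifb1 (0.789), Reg3g with Scgb3a2 (0.688), Scgb3a1 with Tff2 (0.672) and Bpifa1 with Ltf (0.680). Ltf was most like the kallikrein Klk10 (0.690). These values rested on the 10 cells, without which the highest for Scgb3a1 was 0.0816 and for Reg3g 0.0896. Pigr was most like Sftpa1 (0.320), Lcn2 (0.307) and C3 (0.303), and without the 10 cells like Sftpa1 (0.332), Lyz2 (0.312) and Lcn2 (0.309), all weak.

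Among relatives of the 9 genes, few others were detected. Of 34 secretoglobin genes in the files 4 had 100 UMIs in epithelial cells, the 3 described and Scgb1c1, which in the Sftpc-high clusters was also lower in IL-1β, at 7.15 against 36.3 CPM (ratio 0.197, 0.164 to 0.235). Of 16 BPI-fold genes the third was Lbp, which binds lipopolysaccharide, at 188 and 156 CPM. Of 7 Reg and 7 trefoil and gastric mucous genes 1 each was tested, Reg3g and Tff2. Of 3 transferrin and siderophore genes all 3 were past 2-fold higher in epithelial cells (4.14% of all genes were), and 2 of 2 tested without the 10 cells, where Ltf had too few UMIs. In the Sftpc-high clusters Lcn2, which captures bacterial siderophores, was at 3542 and 18776 CPM (ratio 5.30, 5.25 to 5.35) and transferrin (Trf) at 771 and 1798 CPM (2.33, 2.28 to 2.38). In the list of polymeric immunoglobulin transport, the other gene tested was the IgG receptor Fcgrt, at 17.2 and 33.5 CPM (1.95, 1.69 to 2.25), not past 2-fold.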

How the data were processed

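scRNA-seq of control and IL-1β organoids was analysed, 1 library per condition, grouped by GEO title. The authors deposited raw UMI counts per gene and cell barcode, made with Cell Ranger on GRCm38. The submitters' processing notes also name Scanpy 1.3.6 and mm9, with no role given. No per-sample column was left unused (0).

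Barcodes with over 500 and under 7000 genes and over 2000 UMIs were kept. The scrublet rule of the methods (score over 0.7, or cluster mean over 0.6) marked 3 of 5142 cells (0.0583%), too few to have worked, so doublets remain. Counts were scaled to 10000, and 50 principal components, 15 neighbors and Leiden clustering at resolution 1.0 were used (scanpy 1.11.5, leidenalg 0.10.2), with 146 genes held out. First-round clusters under 50 CPM of Epcam were set aside as stromal. By a rule set after clusters were seen, a cluster was taken as AT2 lineage unless the mean log2 fold of the AT1, DATP or airway list was 1 or more above that of AT2 markers, took that list's name otherwise, and stayed unnamed where fewer than 3 of its markers were raised or none led (3 for airway).

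CPM and ratios of summed UMIs carry exact 95% intervals (scipy 1.17.1), and a count of 0 was taken to allow 3 UMIs over the group. No test was made, since cells are not replicates. Ratios and thinning were tested on simulated data with known folds. The 9 genes, the lists and the markers were chosen with earlier results of these data known, and the motifs after values were seen. Named list genes are the 4 highest and 2 lowest ratios per list among genes with 100 UMIs in the Sftpc-high clusters, and the genes most like a member are its 3 highest correlations. Alternatives varied the cell filter, doublet removal, scaling, averaging, free RNA, the UMI minimum and the clustering.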

Additional observations from a re-analysis of the deposited data

How the results depend on the processing

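No paired analysis was possible because each condition has 1 library. The count of 8 genes past 2-fold higher in epithelial cells became 3 without the 1% of cells highest for each gene, and 3 without the 10 member-high cells, an alternative added after seeing the data. The count of 6 in the Sftpc-high clusters became 2 under each of these, 2 with each library clustered separately and 2 with all highly variable genes kept in clustering. The secretory-like cluster of 50 IL-1β cells became 9 without the 5% highest doublet scores, 9 with another random seed and 0 with the genes left out of clustering. In both clusters of 9 all 9 cells were member-high. Of 247 single-gene ratios under alternatives, 223 kept their call, 23 lost it and 1 gained it. A call was also lost where a gene fell under 100 UMIs, whatever its ratio. No gene called in the main setting changed direction. The median log2 ratio of all genes was 0.06, and -0.06 when surfactant, mitochondrial and ribosomal genes were left out of the scaling. A 0 among 1284 control epithelial cells limits the share of cells with a UMI, to 0.234% at 3 counts, and not the share that expresses a gene.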

Other observations

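Other genes of mucosal defense were compared in the Sftpc-high clusters, as control and IL-1β levels in CPM. Of 20 antimicrobial and anti-protease genes 11 were tested, with 3 past 2-fold higher and 1 lower, where 4.32% and 2.15% of all genes tested were (median log2 ratio 1.00, against 0.10 over all genes tested). Pglyrp1, which binds bacterial peptidoglycan, was at 45.8 and 525 CPM (ratio 11.5, 10.6 to 12.4). Saa3, an acute-phase protein, was at 551 and 3251 CPM (5.90, 5.77 to 6.04), and S100a8, a calcium-binding antimicrobial protein, at 0.743 and 4.61 CPM (6.21, 3.33 to 12.8). S100a8 was higher in IL-1β stromal cells, at 58.9 CPM, and the part of free RNA in its epithelial level was not tested. Cxcl17, a mucosal chemokine, was at 25.9 and 57.4 CPM (2.21, 1.97 to 2.49), not past 2-fold. Wfdc21 was the gene that was lower, at 12.6 and 3.47 CPM (0.276, 0.209 to 0.361), while Wfdc2, of the same family of whey acidic proteins, was at 2564 and 2586 CPM (1.01, 0.995 to 1.02). Of 9 mucin genes 3 were tested and none was past 2-fold in either direction, with Muc4 at 7.97 and 12.5 CPM (1.56, 1.26 to 1.96) and the surface mucin Muc1 at 683 and 595 CPM (0.871, 0.848 to 0.893).

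Of 15 cytokine receptors and factors, 13 were tested and 2 were past 2-fold higher, against 4.32% of all genes tested (median log2 ratio 0.64). Relb, an NF-kB subunit, was at 11.1 and 46.9 CPM (4.21, 3.57 to 4.99) and the inhibitor Nfkbia at 81.7 and 313 CPM (3.84, 3.61 to 4.08). Nfkb2 was at 13.6 and 31.5 CPM (2.32, 1.98 to 2.73), with its limit just under 2. Il17ra, a receptor subunit for IL-17, was at 14.0 and 11.1 CPM (0.795, 0.659 to 0.959) and Il1rap, the IL-1 co-receptor, at 3.71 and 2.55 CPM (0.686, 0.466 to 1.01). Of 13 transcription factors of secretory lineages 8 were tested and none was past 2-fold, with Elf3 at 34.8 and 64.2 CPM (1.85, 1.67 to 2.05) and Hes1, a Notch target, at 121.6 and 80.8 CPM (0.665, 0.623 to 0.710).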
